A study of Mus musculus with 9 samples.

Results

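The genes described here encode the ligands, receptors and binding proteins of the insulin-like growth factor (IGF) system. They are 10 of the 22054 genes in the expression table: the ligands Igf1 and Igf2, the receptors Igf1r and Igf2r, and the binding proteins Igfbp2 to Igfbp7. The members were taken by gene symbol, and the rule for membership uses no measured value. All 10 passed the filter on low counts in every comparison.

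Callus, the repair tissue that forms around a broken bone, was collected on day 7 after femoral fracture from male C57BL/6J mice (7 weeks old by the labels), and its RNA was sequenced in 9 libraries. Mice of the H-151 group (3 libraries) received 750 nmol of H-151, an inhibitor of the innate immune adaptor STING, in 200 μl by daily intraperitoneal injection for a week. Mice of the SR-717 group (3 libraries) received 30 mg/kg of the STING activator SR-717 by the same route and volume, and the control group (3 libraries) received 200 μl of PBS. All 3 groups carried the same fracture and nail, and neither the vehicle of each drug nor whether a library came from 1 mouse or a pool is stated, so p-values measure the spread between these samples only. A library held between 16987398 and 23272480 expected counts. Osteoblast markers summed to between 22632 and 45593 CPM (counts scaled to library size) and osteoclast markers to between 5676 and 10722 CPM, while keratinocyte markers did not exceed 10.9 CPM. Mature skeletal muscle markers summed to between 4073 and 24068 CPM, and all 8 were higher on average in each treated group than in PBS. The low PBS average leaned on PBS replicate 3, the lowest library for 7 of the 8. PBS replicates 1 and 2 held 12401 and 18852 CPM, within the H-151 range of 11076 to 19170. On the first principal component (46.6% of the variance) SR-717 replicate 1 lay at 101 and PBS replicate 1 at 38.8, with the others between -28.8 and -4.03.

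IGF1 and IGF2 are secreted growth factors that are stored in bone matrix and act on chondrocytes, osteoblasts and their progenitors. IGF1R is the receptor tyrosine kinase that carries their signal, whereas IGF2R, the cation-independent mannose 6-phosphate receptor, takes up IGF2 for degradation in lysosomes. The binding proteins hold the ligands outside the cell, and proteases such as PAPP-A, which cleaves IGFBP4, release them. IGFBP7 binds IGFs only weakly and is often called an IGFBP-related protein.

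The family is spread over 7 chromosomes of the mouse genome (GRCm38, GENCODE M21 annotation). Igfbp2 (chr1:72824503-72852474, plus strand) and Igfbp5 (chr1:72857932-72874884, minus strand) face each other tail to tail, 5458 bases apart. Igfbp3 (chr11:7206086-7213923, minus strand) lies next to Igfbp1, and Igfbp4 (chr11:99041244-99054392, plus strand) lies farther along the same chromosome. Igf1r (chr7:67952827-68233668, plus strand) and Igf2 (chr7:142650766-142666816, minus strand) share chromosome 7. Igf1 is at chr10:87858265-87937042 (plus strand), Igf2r at chr17:12682406-12769664 (minus strand), Igfbp6 at chr15:102144362-102149511 (plus strand) and Igfbp7 at chr5:77349240-77408041 (minus strand). Igf1, Igf2 and Igf2r overlap the antisense transcripts Igf1os, Igf2os and Airn. Libraries marked the strand, but whether counting used it is not stated, so counts of these 3 genes are uncertain to that extent.

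RefSeq promoter windows (GRCm38.p6, 250 bases before to 50 after a transcription start) were present for all 10 genes, with 4 starts for Igf2, 2 for Igfbp2 and 1 for each of the other 8. The 120 bases before the start are shown for the 2 binding proteins with the most RNA and for both receptors, because these promoters differ in kind. All are 5′ to 3′ on the gene's own strand, with TATAAA (the TATA box) and GGGCGG (the GC box), searched on both strands, in capitals.
Igfbp4, chr11:99041124-99041243, plus strand: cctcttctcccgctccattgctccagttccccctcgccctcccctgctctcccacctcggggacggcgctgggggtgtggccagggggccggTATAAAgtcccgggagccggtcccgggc
Igfbp7, chr5:77408046-77408165, minus strand: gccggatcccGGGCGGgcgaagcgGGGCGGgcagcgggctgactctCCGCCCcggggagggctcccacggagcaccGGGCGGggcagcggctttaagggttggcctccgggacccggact
Igf1r, chr7:67952137-67952256, plus strand: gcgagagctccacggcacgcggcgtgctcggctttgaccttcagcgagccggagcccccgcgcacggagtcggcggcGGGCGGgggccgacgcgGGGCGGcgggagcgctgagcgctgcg
Igf2r, chr17:12769707-12769826, minus strand: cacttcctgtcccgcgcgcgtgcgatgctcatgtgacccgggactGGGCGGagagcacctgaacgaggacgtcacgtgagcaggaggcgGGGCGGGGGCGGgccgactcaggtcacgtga
TATAAA stood 28 bases before the start of Igfbp4. It occurred in 2 of the 14 windows of the family (14.3%; Igfbp4, and Igfbp6 on the opposite strand), against 13.6% of all 32851 RefSeq windows of the same length. GGGCGG occurred in 6 of the 14 (42.9%; windows of Igf2, Igf1r, Igf2r, Igfbp2 and Igfbp7), against 35.7% of all windows. The window of Igfbp7 held 4 copies, that of Igf2r 3 and that of Igf1r 2. These are matches of letters and carry no measurement of binding.

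Binding proteins made up most of the IGF family RNA of the callus. In TPM, which scale for transcript length and library total, the PBS libraries averaged 764 ± 55.8 for Igfbp7 and 652 ± 178 for Igfbp4 (mean ± SD, n = 3). Igfbp5 followed at 246 ± 88.1 TPM, Igfbp3 at 209 ± 13.0, Igf2 at 160.5 ± 54.5, Igfbp6 at 132 ± 57.5 and Igf1 at 91.2 ± 11.9. Igf2r averaged 50.2 ± 11.3 TPM, Igfbp2 7.60 ± 4.02 and Igf1r 5.65 ± 1.78. In this order only 3 neighbouring pairs were apart in the PBS libraries, namely Igfbp4 above Igfbp5, Igf1 above Igf2r, and Igf2r above Igfbp2. Each of these pairs kept its order in all 9 libraries, whereas the other neighbours overlapped. Over all genes, the mean TPM of Igfbp7 exceeded that of 99.0% and the mean TPM of Igf1r that of 54.4%. Igfbp2 rested on 41 to 180 counts per library, the fewest of the family, and the other 9 genes on at least 425.

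**Figure D1:**
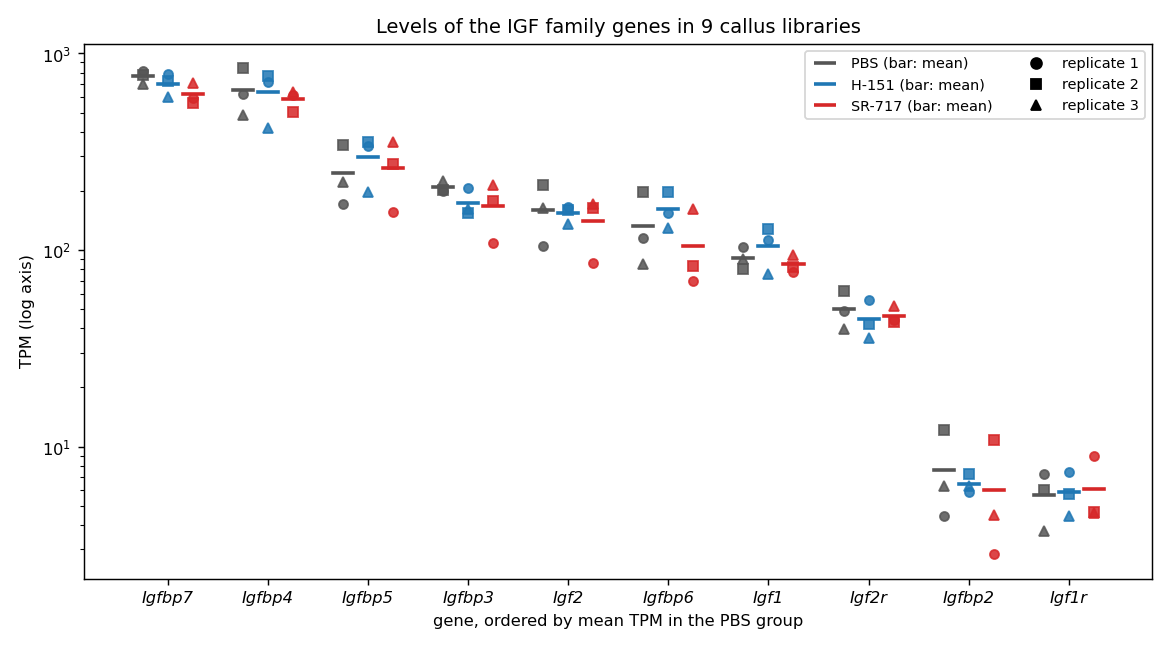
TPM on a log axis for the 10 IGF family genes in each library, ordered by the PBS mean, with a bar at each group mean and a symbol for each replicate number. The 3 groups overlap for every gene, and Igfbp2 and Igf1r lie below 13 TPM in all libraries.

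Both ligands were expressed in every library, and for neither did any group stand apart in TPM. For Igf2, the fetal-type ligand expressed in cartilage, the PBS libraries held 105, 213 and 163 TPM, the H-151 libraries 165, 160 and 136, and the SR-717 libraries 85.5, 164 and 171. The lowest values belonged to SR-717 replicate 1 and PBS replicate 1, so the groups overlapped throughout. For Igf1, the main mediator of growth hormone action, the PBS libraries held 104, 79.7 and 90.2 TPM, the H-151 libraries 113, 128 and 75.7, and the SR-717 libraries 76.9, 82.2 and 94.5. Here the highest and the lowest library were both from the H-151 group. Igf2 exceeded Igf1 in every library, by 1.01-fold in PBS replicate 1 up to 2.68-fold in PBS replicate 2.

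The level of Igf1 depended on the scale. In normalised counts (CPM), its lowest library was PBS replicate 2 at 116 and its highest PBS replicate 3 at 224, whereas in TPM these 2 libraries stood at 79.7 and 90.2. Dividing the count by the TPM gives, up to a constant per library, the effective transcript length used in the authors' quantification, and for Igf1 this varied 1.58-fold among libraries, more than in 97.4% of 10124 genes with at least 100 counts in every library. It was 1.43 times the median library in H-151 replicate 3, 1.39 in PBS replicate 3, and 1.28 and 1.20 in replicates 1 and 2 of SR-717, and between 0.90 and 1.00 in the other 5 libraries. Long and short libraries therefore occurred in every group. The annotation lists 8 Igf1 transcripts of 510 to 7052 bases. For the other 9 members the effective length varied by at most 1.15-fold.

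**Figure D2:**
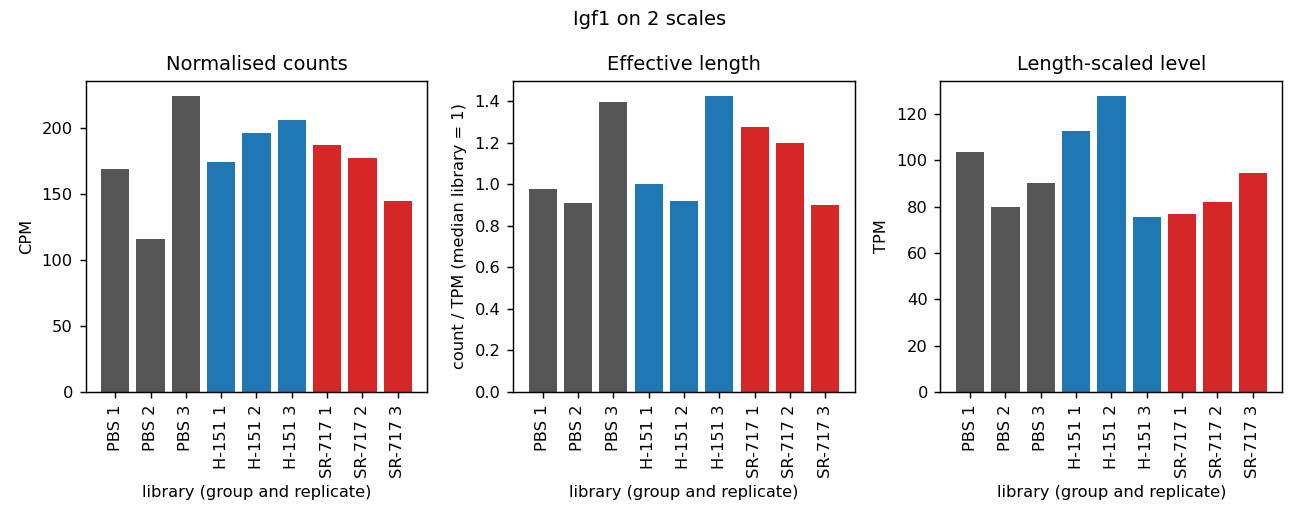
Igf1 in the 9 libraries as CPM, as effective length (count divided by TPM, with the median library set to 1) and as TPM. Bars are single libraries. The tallest CPM bar (PBS replicate 3) belongs to a library with a long effective length and is not the tallest in TPM, where H-151 replicate 2 is highest.

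Of the receptors, Igf1r was highest in SR-717 replicate 1. The libraries of the PBS group held 7.25, 5.99 and 3.73 TPM of Igf1r, those of the H-151 group 7.40, 5.77 and 4.45, and those of the SR-717 group 9.01, 4.64 and 4.58. The 2 remaining SR-717 libraries lay within the range of the PBS group. Igf2r ranged from 35.8 to 62.2 TPM with overlapping groups, and exceeded Igf1r by 4.89-fold (SR-717 replicate 1) to 11.4-fold (SR-717 replicate 3).

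Of the binding proteins, Igfbp7 lay below PBS on the count scale in both treated groups and Igfbp3 in the H-151 group, and neither passed the test. Igfbp7 stood at 475, 436 and 441 CPM in the PBS libraries, 426, 426 and 403 in the H-151 libraries, and 396, 355 and 423 in the SR-717 libraries. All 6 treated libraries lay below all 3 PBS libraries on this scale, although in TPM the groups overlapped (PBS from 703, SR-717 up to 708, H-151 up to 784). Markers of pericytes and smooth muscle moved in the same direction, with 6 of 7 lower on average in SR-717 and 6 of 7 lower in H-151 than in PBS. Their summed CPM was 1290 to 1671 in PBS, 1086 to 1336 in H-151 and 1094 to 1296 in SR-717. The high PBS sum leaned on PBS replicate 1 (1671). PBS replicates 2 and 3 held 1290 and 1327, within the H-151 range, and replicate 2 lay below SR-717 replicate 3 (1296). None of the 7 was at 0 in any library, and their part in the Igfbp7 values was not tested. This direction was not particular to that list. In each treated group, 7 of 8 osteoclast and 5 of 7 endothelial markers were also lower on average than in PBS. All 8 mature skeletal muscle and all 6 adipocyte markers were higher in each. Over 9 libraries, Igfbp7 correlated at r = 0.88 with summed pericyte and smooth muscle markers, and at 0.83 without SR-717 replicate 1 and PBS replicate 1. The same 2 coefficients were 0.51 and 0.67 with fibroblast or progenitor markers. They were 0.27 and -0.03 with endothelial and 0.02 and -0.09 with osteoclast markers. These coefficients carry no test, and the part of these cell types was not tested either. In bulk tissue, fewer cells of a type and less RNA per cell cannot be told apart.

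Igfbp3, the major carrier of IGFs in blood, stood at 253, 245 and 303 CPM in the PBS libraries and at 244, 196 and 234 in the H-151 libraries, which did not overlap. In TPM they did, since H-151 replicate 1 reached 208 against a lowest PBS value of 200.2. The SR-717 libraries held 158, 242 and 277 CPM and overlapped both other groups. SR-717 replicate 1 was the lowest of all 9.

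Igfbp6, which binds IGF2 in preference to IGF1, showed the largest difference in the family, between SR-717 and H-151. Its TPM was 155, 199 and 130.1 in the H-151 libraries and 69.7, 83.3 and 163 in the SR-717 libraries, where only replicate 3 reached into the H-151 range. The PBS libraries held 115, 196 and 85.2 TPM and spanned most of both ranges.

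Igfbp5, a binding protein with affinity for bone matrix, ranged from 157 TPM (SR-717 replicate 1) to 355 TPM (SR-717 replicate 3). Igfbp4 ranged from 419 TPM in H-151 replicate 3 to 841 in PBS replicate 2, and Igfbp2 from 2.83 in SR-717 replicate 1 to 12.1 in PBS replicate 2. For these 3 genes all groups overlapped.

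Whether activation of STING changed the IGF family relative to control was asked with SR-717 against PBS. No member passed an unadjusted p of 0.05 (edgeR's quasi-likelihood test), against 97 of 14070 genes (0.689%). A fit that took the replicate number as a blocking factor passed 534 genes and again 0 members. Log2 fold changes ran from -0.25 for Igfbp2 (SE 0.57) to 0.24 for Igf1r (SE 0.38), and 3 of 10 were above 0. Their median was -0.01, beside 0.01 over all genes tested. For Igfbp7 the log2 fold change was -0.20 (SE 0.16, 95% interval -0.58 to 0.17, an unadjusted p of 0.24 and a Benjamini-Hochberg adjusted p of 0.9999 in edgeR), and it was the single member whose groups did not overlap in CPM, against 3.75% of genes tested. The interval excluded a 2-fold change in either direction for 6 of the 10 members; for Igf1r, Igfbp2, Igfbp5 and Igfbp6 it reached further, down to 0.325-fold for Igfbp2 and up to 2.21-fold for Igf1r. Without SR-717 replicate 1, the value for Igf1r was -0.22 instead of 0.24.

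The comparison of H-151 with PBS asked the same of STING inhibition. Here too 0 of 10 members passed, against 91 of 14085 genes (0.646%), and 0 members against 431 genes with the replicate block. Igfbp6 had the highest log2 fold change at 0.32 (SE 0.29) and Igfbp2 the lowest at -0.29 (SE 0.37), and 5 of 10 were above 0, with a median of 0.01 beside -0.02 over all genes. Igfbp3 had the smallest p (log2 fold change -0.25, SE 0.16, 95% interval -0.62 to 0.13, an unadjusted p of 0.16 and an adjusted p of 0.9999 in edgeR). Igfbp3 and Igfbp7 were the 2 members whose CPM did not overlap between groups, against 3.87% of genes. All intervals but that of Igfbp2 excluded a 2-fold change. Igfbp6 passed the unadjusted threshold only when PBS replicate 2, its highest control, was left out (log2 fold change 0.68, an unadjusted p of 0.019 in edgeR). In that fit 884 of all genes tested passed (6.21%).

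SR-717 and H-151, which act on STING in opposite directions, were compared directly, and 0 of 10 members passed against 146 of 14151 genes (1.03%). The adjusted p of the members was at least 0.996. Igfbp6 was lower in SR-717 by the largest amount (log2 fold change -0.56, SE 0.31, 95% interval -1.32 to 0.19, an unadjusted p of 0.12 and an adjusted p of 0.996 in edgeR). Without SR-717 replicate 3 its log2 fold change was -0.96 with an unadjusted p of 0.0047 in edgeR, the smallest p of any member under any alternative. In that fit 757 of all genes tested passed (5.27%). Igf1 followed at -0.19 (SE 0.15), and the other 8 members lay between -0.11 and 0.16. The 4 members above 0 and 6 below had a median of -0.04 beside 0.02 over all genes, and in no member did the groups fail to overlap, against 5.18% of genes. These differences show no called change, and the intervals, which for Igfbp2 ran from 0.447-fold to 2.35-fold, do not show equal levels.

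**Figure D3:**
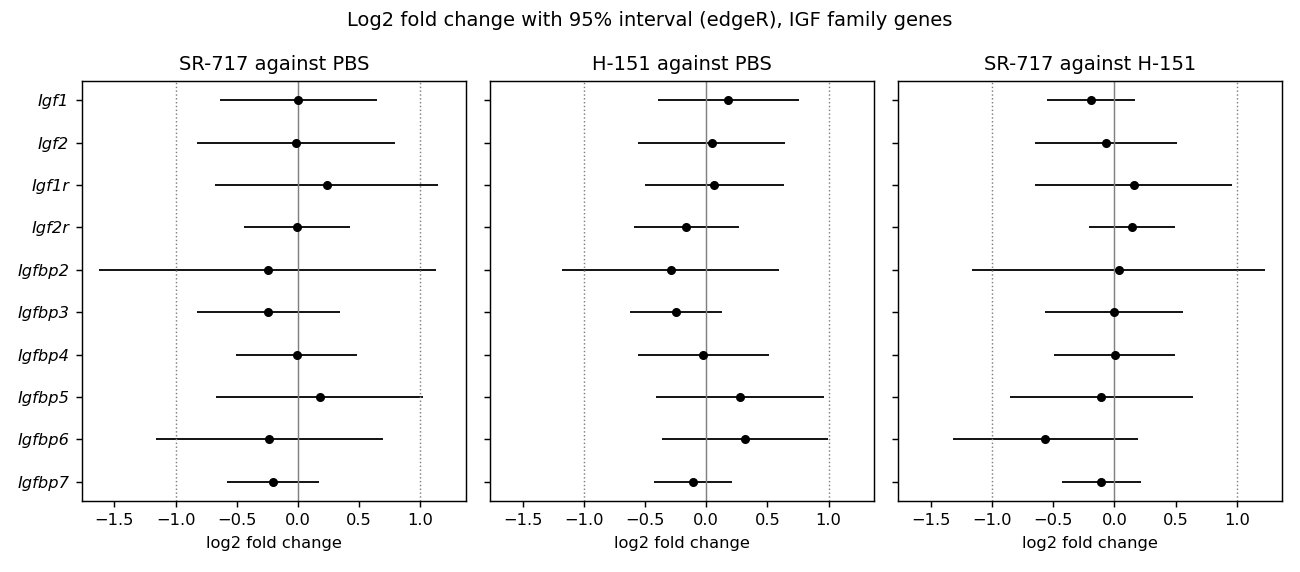
Log2 fold change of each IGF family gene (points) with its 95% interval (lines) from edgeR for the 3 comparisons, with dotted lines at a 2-fold change. Every interval includes 0, and those of Igfbp2 and Igfbp6 are among the widest.

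The balance between binding proteins and ligands overlapped among the 3 groups as well. The summed TPM of the 6 binding proteins was 8.06 ± 1.23 times that of the 2 ligands in PBS, 7.59 ± 0.404 times in H-151 and 7.95 ± 1.49 times in SR-717 (mean ± SD, n = 3). Single libraries ran from 6.54 (SR-717 replicate 2) to 9.50 (SR-717 replicate 1), and the 2 highest ratios were those of SR-717 replicate 1 and PBS replicate 1 (9.27). Igfbp7 supplied 32.8% to 42.1% of binding protein TPM and Igfbp4 27.7% to 39.8%, so that these 2 genes held most of it in every library. Igfbp5 supplied 8.92% to 17.1%, Igfbp3 6.98% to 12.9%, Igfbp6 4.52% to 8.99% and Igfbp2 at most 0.670%. The ranges of all 6 shares overlapped among the groups.

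**Figure D4:**
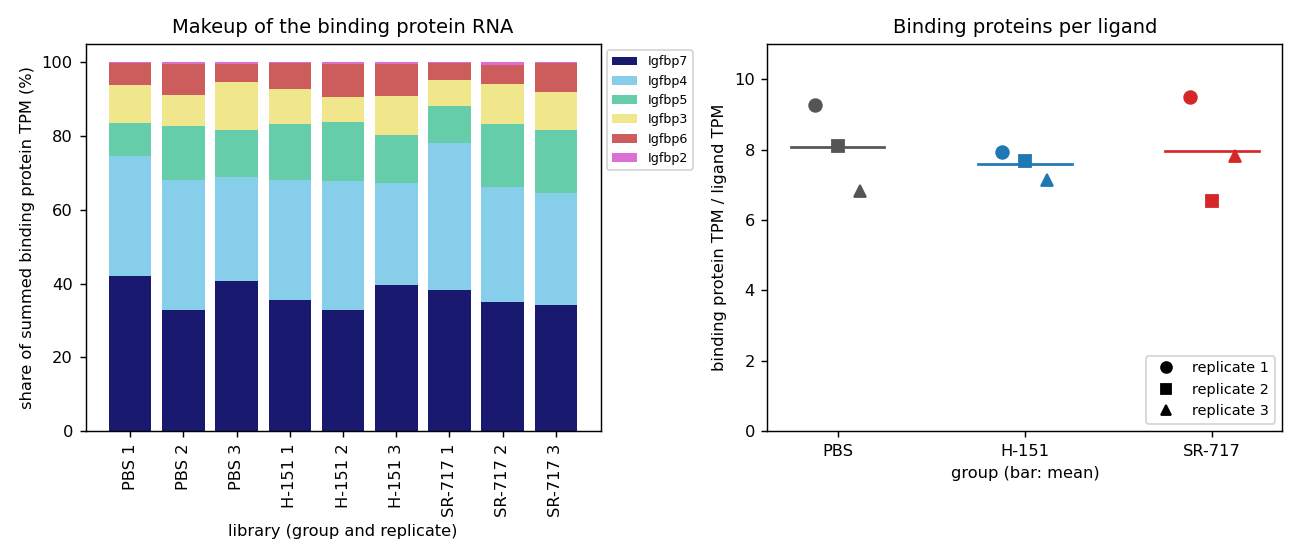
Left, the share of each binding protein gene in the summed binding protein TPM of each library. Right, the ratio of summed binding protein TPM to summed ligand TPM per library, with a bar at the group mean. Igfbp7 and Igfbp4 fill the lower part of every bar, and the ratio runs from 6.54 to 9.50 with overlapping groups.

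Part of the spread between single libraries was shared among members. Across the 9 libraries, log2 CPM of Igf2 and Igfbp5 correlated with r = 0.87, and with 0.82 without SR-717 replicate 1 and 0.49 without both SR-717 replicate 1 and PBS replicate 1. Igf2 and Igfbp2 correlated with r = 0.77, and with 0.64 and 0.67 without the same libraries. These coefficients describe libraries that share tissue makeup, and carry no test. SR-717 replicate 1 and PBS replicate 1 had the lowest Igf2, Igfbp5 and Igfbp2, and also the lowest summed chondrocyte markers, at 831 and 2298 CPM against 5816 to 16478 in the other 7 libraries. All 9 chondrocyte markers were lowest in SR-717 replicate 1 and none was at 0. By group their sum was 2298 to 16478 CPM in PBS, 6413 to 12184 in H-151 and 831 to 9736 in SR-717. With this sum Igf2 correlated at r = 0.90 and Igfbp5 at 0.77 over 9 libraries, at 0.87 and 0.70 without SR-717 replicate 1, and at 0.47 and 0.21 without SR-717 replicate 1 and PBS replicate 1. The summed erythroid markers (6 genes) gave r = 0.84 and 0.88 over 9 libraries, and 0.32 and 0.64 without both. All 4 were thus weaker without those 2 libraries, and least so for Igfbp5 with the erythroid markers. Some other lists gave Igfbp5 larger coefficients without both. Adipocyte markers (summed CPM 6.91 to 79.4) gave 0.83 (0.69 over 9 libraries) and neutrophil markers 0.77 (-0.10 over 9). Osteoclast markers went the other way, at -0.61 (0.06 over 9). The part of any of these cell types in these values was not tested.

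Igf1r ran the other way over 9 libraries (r = -0.75 with Igf2, -0.61 with Igfbp2 and -0.50 with Igfbp5). Without SR-717 replicate 1 and PBS replicate 1, Igf1r gave -0.08, -0.08 and 0.45 with the same genes. Its highest library, SR-717 replicate 1 at 61.7 CPM, was also the highest for all 9 neutrophil markers (summed CPM 13935, against at most 4607 elsewhere) and for 7 of 9 macrophage markers. Its lowest library, PBS replicate 3 at 23.9 CPM, had the lowest neutrophil sum, 569 CPM. The neutrophil sum was 569 to 3447 CPM in PBS, 1300 to 4607 in H-151 and 2480 to 13935 in SR-717, with none of the 9 markers at 0. Correlations of Igf1r were r = 0.86 with neutrophil markers and -0.90 with osteoblast markers, 0.75 and -0.78 without SR-717 replicate 1, and 0.80 and -0.68 without PBS replicate 1 as well. Such coefficients were not particular to these lists. Osteoclast markers gave -0.80 over 9 libraries and -0.80 without both. Erythroid markers gave 0.80 without both (-0.37 over 9). Macrophage markers gave 0.86 over 9 but 0.38 without both. Whether any of these cells carried the Igf1r RNA was not tested.

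In CPM, Igf1 and Igf2r were the most opposed pair of the family (r = -0.90 over 9 libraries). In log2 TPM the same pair gave r = 0.16, whereas Igf2 and Igfbp5 kept 0.86. The opposed pattern was thus present in CPM and not in TPM. TPM divide out the effective length, and they also scale each library by another factor than CPM. The effective length of Igf2r did not vary (1.0-fold). Even so, SR-717 replicate 1 and H-151 replicate 1 held 235 and 241 CPM of Igf2r but 44.1 and 55.7 TPM. Which of these steps removed the opposed pattern was not tested.

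**Figure D5:**
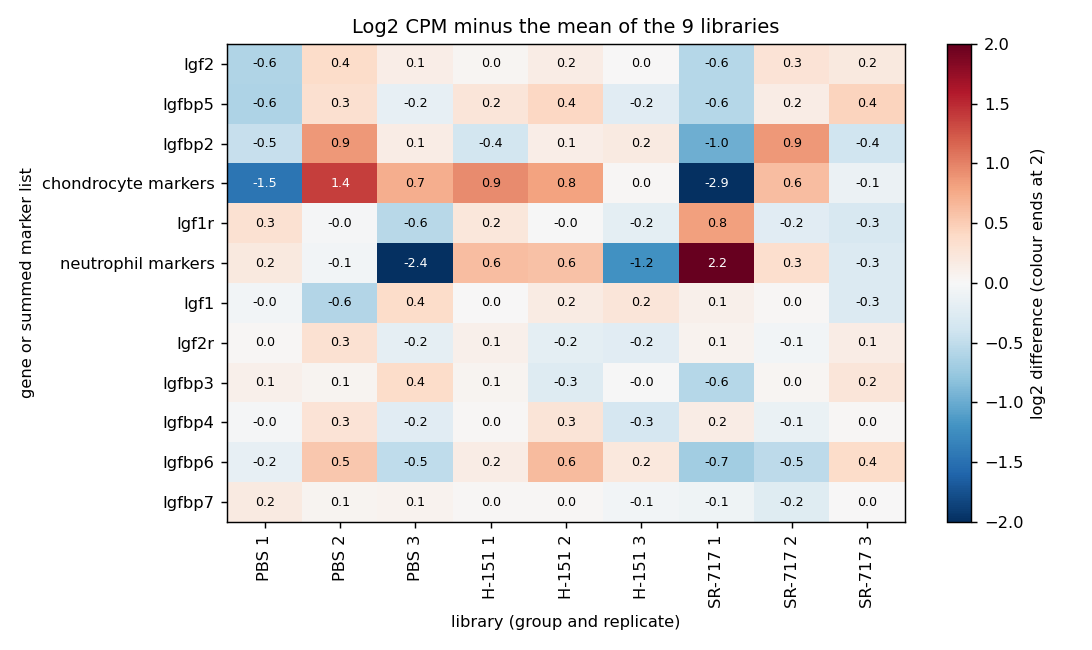
Log2 CPM of each member and of 2 summed marker lists, minus the mean of the 9 libraries (printed in each cell, with colour ending at 2). Igf2, Igfbp5, Igfbp2 and the chondrocyte markers are low together in PBS replicate 1 and SR-717 replicate 1, and Igf1r and the neutrophil markers are high together in SR-717 replicate 1.

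For each member, the 3 other genes with the most similar log2 CPM were taken from the 14294 genes that passed the filter over all 9 libraries. They were Ddx56, Eif3f and Lrp5 for Igf2 (r = 0.98 each), and Cers6, Cmah and Sp100 for Igf1r (r = 0.98 each). Igfbp5 was most like Hsd11b2, Trpm5 and Ano10 (r = 0.96 to 0.97) and Igfbp6 most like Atp9a, Tppp3 and Rab4a (0.94 to 0.97). For Igfbp3 the list was Ctnnd1, Ebpl and Cgnl1 (0.95 to 0.99), for Igfbp4 Map3k3, Ap2a2 and Csmd1 (0.93 to 0.96), and for Igf2r Rab11fip5, Dync1h1 and Mmrn2 (0.93 to 0.99). Igf1 was most like Rad23b, Hic2 and Thrap3 (0.92 each), Igfbp7 most like Ammecr1l, Fut11 and Catsper2 (0.92 to 0.94) and Igfbp2 most like Tigd3, Tfb1m and Rdm1 (0.94 each). Without SR-717 replicate 1 all 30 coefficients were at least 0.887. They were picked as the highest of all genes searched, over few libraries.

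Beyond the members, 76 genes of the pathway were listed by role, and 62 of them were tested for SR-717 against PBS, 61 for H-151 against PBS and 62 for SR-717 against H-151. At an unadjusted p of 0.05, 1 passed in the first comparison (Pappa, 1.61% of those tested against 0.689% of all genes), 1 in the second (Hmga2, 1.64% against 0.646%) and 4 in the third (Pappa, Stc2, Klk1 and Hmga2, 6.45% against 1.03%). None passed after adjustment, and no list was tested as a whole. Klk1 entered the third comparison only through the SR-717 libraries. At a mean count of at least 50, which removed Klk1 and Hmga2, 59 genes were tested. The calls were then 1 (Pappa, 1.69% against 0.499% of all genes), 0 and 2 (Pappa and Stc2, 3.39% against 0.802%). With the replicate block the calls were 1 (Pappa), 2 (Plagl1 and Stat5b) and 3 (Pappa, Klk1 and Cish), and with 1 library left out they numbered 0 to 5, 0 to 2 and 2 to 6. The median log2 fold change of the tested pathway genes was -0.02, -0.04 and -0.00 in the 3 comparisons, beside 0.01, -0.02 and 0.02 over all genes. H19 and Ins2 were not analysed here.

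Of the proteases that cut binding proteins and their inhibitors, 10 were tested between SR-717 and H-151, where Pappa and Stc2 were lower in SR-717 and Klk1 higher at the unadjusted threshold. Pappa encodes the IGFBP4 protease PAPP-A. It stood at 10.1, 9.01 and 10.7 CPM in the SR-717 libraries, 14.4, 15.2 and 14.2 in the H-151 libraries and 14.9, 11.9 and 15.2 in the PBS libraries. All SR-717 libraries lay below all others. In SR-717, all 9 chondrocyte markers were on average lower and all 9 neutrophil markers higher than in either other group. Of the 9 osteoblast markers, 7 were lower than in H-151 and 6 than in PBS. SR-717 replicate 1 weighed on these averages, with summed CPM of 831 for chondrocyte and 13935 for neutrophil markers. SR-717 replicates 2 and 3 held 9736 and 5816 CPM of the former and 3790 and 2480 of the latter. The values 9736 and 2480 lay within the ranges of both other groups. The value 5816 lay below every H-151 library (from 6413) and, of the PBS libraries, above replicate 1 alone (2298). The value 3790 lay above every PBS library (up to 3447) and within the H-151 range. The part of these cell types in the Pappa values, and in those of the other pathway genes below, was not tested. The log2 fold change of Pappa was -0.57 against H-151 (SE 0.15, an unadjusted p of 0.0089 and an adjusted p of 0.996 in edgeR) and -0.49 against PBS (SE 0.19, an unadjusted p of 0.042 and an adjusted p of 0.9999 in edgeR). Against H-151 it kept an unadjusted p under 0.05 in all 13 alternatives. Against PBS it did so in 8 of 14 alternatives and lost it in 6, among them leaving out any 1 SR-717 library, PBS replicate 1 or PBS replicate 3 (unadjusted p up to 0.137 in edgeR). No difference was called for H-151 against PBS (log2 fold change 0.06, SE 0.17).

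Stc2 encodes stanniocalcin-2, which inhibits PAPP-A. It was lower in SR-717 than in H-151 (log2 fold change -0.70, SE 0.28, an unadjusted p of 0.046 in edgeR, adjusted p of 0.996), with 6.96, 5.52 and 5.95 CPM in H-151 and 2.58, 4.60 and 4.26 in SR-717. The PBS libraries held 4.00, 5.88 and 5.96 CPM of Stc2 and overlapped both groups. No difference was called for SR-717 against PBS (log2 fold change -0.47, SE 0.33) or for H-151 against PBS (0.22, SE 0.24). Without SR-717 replicate 1 the value for SR-717 against H-151 was -0.48 with an unadjusted p of 0.070 in edgeR. The threshold was also missed there without SR-717 replicate 3, without any 1 H-151 library and with the replicate block. Klk1, a tissue kallikrein, averaged 0.236 CPM in H-151, 0.542 in PBS and 0.676 in SR-717, on 3 to 6, 6 to 21 and 11 to 15 counts per library. The log2 fold change of SR-717 against H-151 was 1.47 (SE 0.38, an unadjusted p of 0.0078 in edgeR, adjusted p of 0.996) and that of SR-717 against PBS 0.29 (SE 0.48, an unadjusted p of 0.56 in edgeR). All H-151 libraries lay below all others in CPM. Klk1 entered the comparison with H-151 only through the SR-717 libraries, since no H-151 library reached the count minimum, and it was not tested for H-151 against PBS. It has near-identical copies among which counts could be split. In the same list Mmp9, the gelatinase of osteoclasts and neutrophils, and Ctsd, a lysosomal protease, had the highest levels, at 1720 ± 284 and 1631 ± 275 TPM in PBS, and neither was called.

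In the group on Igf2 mRNA and imprinting, Hmga2, a chromatin protein of growing tissue that is known to raise Igf2bp2, was the only gene called. It stood at 1.47, 1.63 and 0.889 CPM in H-151, 0.742, 0.676 and 0.674 in PBS and 0.723, 0.422 and 0.701 in SR-717, on 9 to 33 counts per library. In the comparison of SR-717 with H-151, 3 H-151 and 2 SR-717 libraries reached the count minimum of the filter. H-151 was above PBS (log2 fold change 0.93, SE 0.36, an unadjusted p of 0.037 in edgeR, adjusted p of 0.9999) and SR-717 below H-151 (-1.12, SE 0.39, an unadjusted p of 0.027 in edgeR, adjusted p of 0.996). With the replicate block the unadjusted p for H-151 against PBS was 0.055 in edgeR. That call was lost in 7 of 12 alternatives, which include DESeq2 and leaving out any 1 PBS library, H-151 replicate 1 or H-151 replicate 2, and the call for SR-717 against H-151 in 4 of 12 (the block, and without H-151 replicate 1, H-151 replicate 2 or SR-717 replicate 2). Plagl1, an imprinted transcription factor, and Ctcf, which binds the Igf2 imprinting control region, were the most abundant of this group at 76.6 ± 37.6 and 21.9 ± 3.00 TPM in PBS.

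The growth hormone axis (8 genes tested) and receptor signaling (37 tested) held no called gene in the main fit of any comparison. Under the alternatives some were called at the unadjusted threshold. The replicate block called Stat5b and Cish as above, and the fit over all 9 libraries called Pik3r3 for SR-717 against PBS. Fits with 1 library left out called Stat5b, Cish, Socs1 and Socs3 of the former list and Pik3ca, Pik3r3, Pdpk1 and Irs2 of the latter. Socs3, a feedback inhibitor of cytokine signaling, and Stat5b, which carries the growth hormone signal to Igf1, led the growth hormone axis at 79.9 ± 68.2 and 25.4 ± 8.19 TPM in PBS. The Socs3 mean rested on PBS replicate 1 at 158 TPM, and the other 2 libraries averaged 40.8. Akt1, the kinase downstream of IGF1R, and Grb10, an adaptor that restrains it, led receptor signaling at 263 ± 39.4 and 184 ± 39.0 TPM. Of the other ligands, receptors and binding proteins, Insr, the insulin receptor, stood at 12.0 ± 2.09 TPM and Igfals, the acid-labile subunit that stabilises circulating IGFs, at 1.13 ± 0.621 TPM. Igfbp1, Ins1 and Igfl3 were at 0 counts in all 9 libraries. A count of 0 allows up to 3 counts per library, or 0.129 to 0.177 CPM, and this limit covers counting error only.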

How the data were processed

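RNA of day 7 callus was sequenced by a service company. Libraries were poly(A)-selected, marked the strand and were read from both ends. The authors deposited 1 table with an expected count (not normalized, 8.91% not whole) and a TPM value (scaled for length and total by the authors) per gene and library. The submitters' processing notes name mm10, and the aligner, counter and annotation are not given in the sources used here. The labels' extraction text speaks of cell lines, while the labels name bone as the tissue.

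Expected counts were rounded to whole numbers, for which the planned count test was kept. edgeR 4.0.16 in R 4.3.3 was run per pair of groups (6 libraries) with filterByExpr (a count of 10, a total of 15), TMM, glmQLFit and glmQLFTest, and no covariates. The SE came from the F statistic. Thresholds were p under 0.05, unadjusted and after Benjamini-Hochberg adjustment. CPM used 1 TMM scaling over all 9 libraries. Likeness used log2 CPM (prior count 2). The test was checked on simulated data. Alternatives were DESeq2 size factors, DESeq2 1.42.0, no filter, a mean count minimum of 50, 1 fit over all 9 libraries, a replicate block and each library left out. Deviations of same-numbered libraries correlated at r = 0.65, 0.34 and 0.14 for SR-717 and PBS. For H-151 and PBS they correlated at 0.30, 0.49 and 0.50. The value 0.65 belongs to SR-717 replicate 1 and PBS replicate 1, which lay farthest out on the first principal component. No values for differently numbered libraries stand beside these, so they cannot show pairing. The meaning of a shared number is unknown. The main test was unpaired, and the replicate block served as an alternative only.

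Named genes were all members, pathway genes with an unadjusted p under 0.05, the 2 most abundant tested genes of each pathway list and the 3 genes most like each member. Members and lists were chosen with earlier results of these data known.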

Additional observations from a re-analysis of the deposited data

How the results depend on the processing

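No member passed an unadjusted p of 0.05 under DESeq2 size factors, DESeq2's Wald test, either change of filter, all 9 libraries in 1 fit, the replicate block or the effective length as an offset. Of 400 member values under the alternatives, 350 kept their direction and their side of the threshold, 2 (both Igfbp6, with 1 library left out) passed it and 48 changed sign. Members called ranged from 0 to 1 with single libraries left out.

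The share of tested genes at an unadjusted p under 0.05 depended on the processing. For SR-717 against PBS (0.689%, 97 genes), it was 1.27% with DESeq2, 1.17% without a filter, 0.499% at a mean count of at least 50, 1.73% with all 9 libraries and 3.80% (534 genes) with the replicate block, and 0.717% to 2.42% with 1 library left out (303 genes without PBS replicate 2, 348 without SR-717 replicate 3). For H-151 against PBS (0.646%, 91 genes), it was 0.839% without a filter, 0.476% at a mean count of at least 50 and 3.06% (431 genes) with the block, and 0.316% to 6.21% with 1 library left out (45 genes without H-151 replicate 2, and 217, 884 and 230 without PBS replicate 1, 2 and 3). For SR-717 against H-151 (1.03%, 146 genes), it was 1.99% with DESeq2, 1.42% without a filter and 0.532% to 5.27% with 1 library left out (76 genes without H-151 replicate 2, and 324, 400 and 757 without SR-717 replicate 1, 2 and 3). At an adjusted p under 0.05, DESeq2 called 1 gene for SR-717 against H-151 and edgeR 0 in every comparison. The replicate block gave 173 genes there. In that pair same-numbered libraries correlated at 0.34, 0.06 and 0.08. The cause of these shifts was not tested.

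Signs changed as follows. Igf1 in SR-717 against PBS was -0.00091 without a filter, -0.018 with the effective length and -0.060 without SR-717 replicate 1 and PBS replicate 1 together, an alternative chosen, like the effective length, after seeing the data. Igf2 in H-151 against PBS was -0.035 with the effective length. Igf2r in SR-717 against PBS was 0.0039 with the replicate block. In SR-717 against H-151, Igfbp2 was -0.15 with the replicate block and -0.037 with the effective length, Igfbp3 was 0.0053 with DESeq2 size factors, 0.0048 with DESeq2 and 0.0071 with all 9 libraries, and Igfbp4 was -0.00043 without a filter, -0.0035 at a mean count of at least 50 and -0.029 with the effective length. The replicate block changed no other direction and no call of a member.

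With 1 library left out, log2 fold changes in SR-717 against PBS ran from -0.21 to 0.25 for Igf1, -0.25 to 0.22 for Igf2, -0.22 to 0.45 for Igf1r, -0.12 to 0.12 for Igf2r, -0.95 to 0.17 for Igfbp2, -0.13 to 0.13 for Igfbp4, -0.057 to 0.44 for Igfbp5 and -0.63 to 0.11 for Igfbp6. In H-151 against PBS they ran from -0.018 to 0.43 for Igf1, -0.18 to 0.27 for Igf2, -0.13 to 0.29 for Igf1r, -0.55 to 0.14 for Igfbp2 and -0.17 to 0.13 for Igfbp4. In SR-717 against H-151 they ran from -0.22 to 0.16 for Igf2, -0.30 to 0.36 for Igf1r, -0.67 to 0.36 for Igfbp2, -0.18 to 0.20 for Igfbp3, -0.15 to 0.16 for Igfbp4 and -0.34 to 0.13 for Igfbp5.

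The ratio of binding proteins to ligands was 5.60 in PBS, 5.32 in H-151 and 5.52 in SR-717 in CPM, which leaves length unscaled, and 4.95, 4.86 and 5.09 without Igfbp7. Ratios of group mean TPM moved by less than the spread between replicates in CPM for all 30 values, of which 5 changed sign. With 3 libraries per group, intervals of Igfbp2, at 41 to 180 counts, were the widest.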
